A study of Rattus norvegicus with 12 samples.

Results

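Genes of DNA damage signalling and repair were followed in primary cultures of newborn rat heart muscle cells after small interfering RNA (siRNA) against Btg1, Btg2 or both. The set was a list of 36 gene symbols, taken wherever a row carried that symbol or its current name (H2ax for H2afx, Mre11 for Mre11a). Of these, 31 had a row among the 17419 genes of the deposited tables and all 31 passed the low-count filter that left 12535 genes for testing. Atr, Brip1, Blm, Fanci and Msh6 were not analysed here. The cells came from ventricles of wild-type Sprague-Dawley rats at postnatal day 0 and were depleted of fibroblasts before plating. Scramble cultures received 20 nM of scrambled siRNA, and Btg1 knockdown cultures received 10 nM of Btg1 siRNA with 10 nM of scramble. Btg2 knockdown cultures received 10 nM of Btg2 siRNA with 10 nM of scramble, and double knockdown cultures received 10 nM of each targeting siRNA. RNA was taken 48 h after transfection from 3 libraries in each of the 4 groups. Nothing in the labels tells whether libraries of 1 group are independent cultures or litters, so each p-value reflects only library-to-library spread, which may be technical.

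Cells meet DNA damage with kinases that sense it (ATM, ATR and DNA-PK), checkpoint kinases that hold the cell cycle, and repair pathways suited to each lesion. Homologous recombination and the Fanconi anaemia pathway mend breaks and crosslinks with a sister chromatid as template, and many of their genes are transcribed mainly in cycling cells. End joining, base excision and nucleotide excision repair work in resting cells too, which matters in heart muscle cells because these largely leave the cell cycle soon after birth. Btg1 and Btg2 belong to a family of antiproliferative proteins that bind the CCR4-NOT deadenylase, and Btg2 is a known target of p53, the transcription factor activated by DNA damage.

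Total counts ran from 24434925 to 46206581 per library. Values below are CPM (counts scaled to a common library size, with TMM factors) unless stated, and a change was called at a Benjamini-Hochberg adjusted p under 0.05 in edgeR's quasi-likelihood test. Btg1 ranged from 280.7 to 285 CPM in scramble, 61.8 to 69.9 in the Btg1 knockdown, 296 to 305 in the Btg2 knockdown and 49.8 to 54.4 in the double knockdown. Btg2 ranged from 132 to 144, 170 to 179, 82.8 to 87.4 and 67.6 to 69.6 CPM in the same groups, so the Btg2 siRNA left a larger share of its target. Heart muscle markers were abundant: 13 of them summed to between 40754 and 49469 TPM (transcript abundance corrected for gene length and library size) in every library, against 6603 to 8424 TPM for 11 fibroblast markers, 55.0 to 81.0 for 10 endothelial markers and 51.9 to 84.2 for 12 leukocyte markers.

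The repair genes spanned a wide range of levels. By TPM the highest in scramble were H2ax, the histone variant phosphorylated around breaks, at a mean of 90.7 TPM, and Parp1, the polymerase that marks strand breaks with poly(ADP-ribose), at 90.6 TPM. These stood at the 81.3 percentile of all tested genes, and the order of the pair is not separated by the spread of the libraries. Next came Ercc1 (59.7 TPM), Rpa1 (49.1 TPM) and Nbn (43.2 TPM), then Xrcc1 (39.6 TPM) and Rpa2 (31.8 TPM). The recombination genes filled the lower end, from Rad51ap1 at 5.43 TPM through Bard1 (3.40 TPM), Xrcc2 (2.63 TPM), Rad54l (2.5 TPM), Palb2 (1.87 TPM) and Brca1 (1.77 TPM) to Exo1 (0.933 TPM) and Brca2 (0.900 TPM). The median of all tested genes was 23.6 TPM. In the GRCr8 annotation the spans of Rad54l, Rpa1, Fanca, Fancd2, Xpa, Ddb2, Ercc1, Mre11 and Brca2 overlap that of another named gene (Polr1g for Ercc1, Acp2 for Ddb2). Whole spans were compared and not exons. Without a stated strand setting, reads from a stretch shared by such a pair cannot be told apart. No member reached 0 in any library, and the lowest single value was 0.6 TPM for Exo1 in a Btg2 knockdown library.

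**Figure D1:**
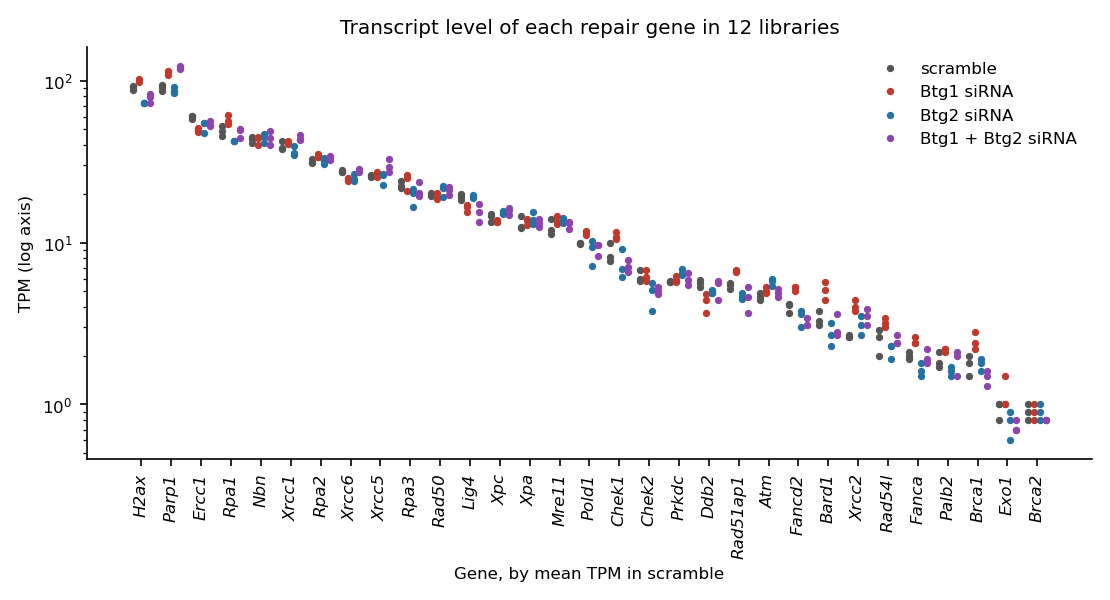
TPM of each of the 31 repair genes (log axis), ordered by the scramble mean, with 1 point per library and colour for the group. H2ax and Parp1 lead at about 90.7 and 90.6 TPM in scramble, and the recombination genes lie at the right end.

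Among the 31 tested members, 22 were called in at least 1 of the 6 comparisons and 9 in none. Btg1 knockdown against scramble gave 9 rises and 4 falls of 31, or 41.9% called against 36.5% of all genes. The rises made up 29.0% of the members against 18.7% of all genes, and the falls 12.9% against 17.8%. Btg2 knockdown against scramble gave 2 rises and 4 falls, 19.4% of members beside 30.0% of all genes (16.4% risen, 13.6% fallen). Double knockdown against scramble gave 4 rises and 3 falls, 22.6% beside 38.9% of all genes (19.4% risen, 19.5% fallen). Of the 31 members, 19, 13 and 9 had no overlap between the 3 scramble libraries and those of the Btg1, Btg2 and double knockdowns (61.3%, 41.9% and 29.0%), beside 50.1%, 45.7% and 46.8% of all genes. Between the double and the Btg1 knockdown 19 did not overlap (61.3% beside 34.6%), and between the double and the Btg2 knockdown 12 (38.7% beside 42.1%).

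Adding the Btg2 siRNA to the Btg1 siRNA, read as double against Btg1 knockdown, gave 2 rises and 9 falls. Here 35.5% of members were called beside 22.3% of all genes, the falls were 29.0% of members beside 11.9% of all genes, and the rises 6.45% beside 10.3%. Adding the Btg1 siRNA to the Btg2 siRNA, read as double against Btg2 knockdown, gave 4 rises and 3 falls (22.6% of members beside 32.2% of all genes, 15.2% risen and 17.0% fallen), or 5 rises and 2 falls when libraries were scaled by their size alone. The median log2 change over the members was 0.14 in the Btg1 knockdown. Against scramble it was -0.12 for the Btg2 knockdown and -0.01 for the double knockdown, and it was -0.20 for the double against the Btg1 knockdown. Over all genes each of these medians was within 0.01 of 0. The Btg1 count of 13 was 7 without scramble replicate 1 and 8 without Btg1 knockdown replicate 3, with 5 rises in either case. The double against Btg2 knockdown count of 7 was 4 without Btg2 knockdown replicate 1.

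**Figure D2:**
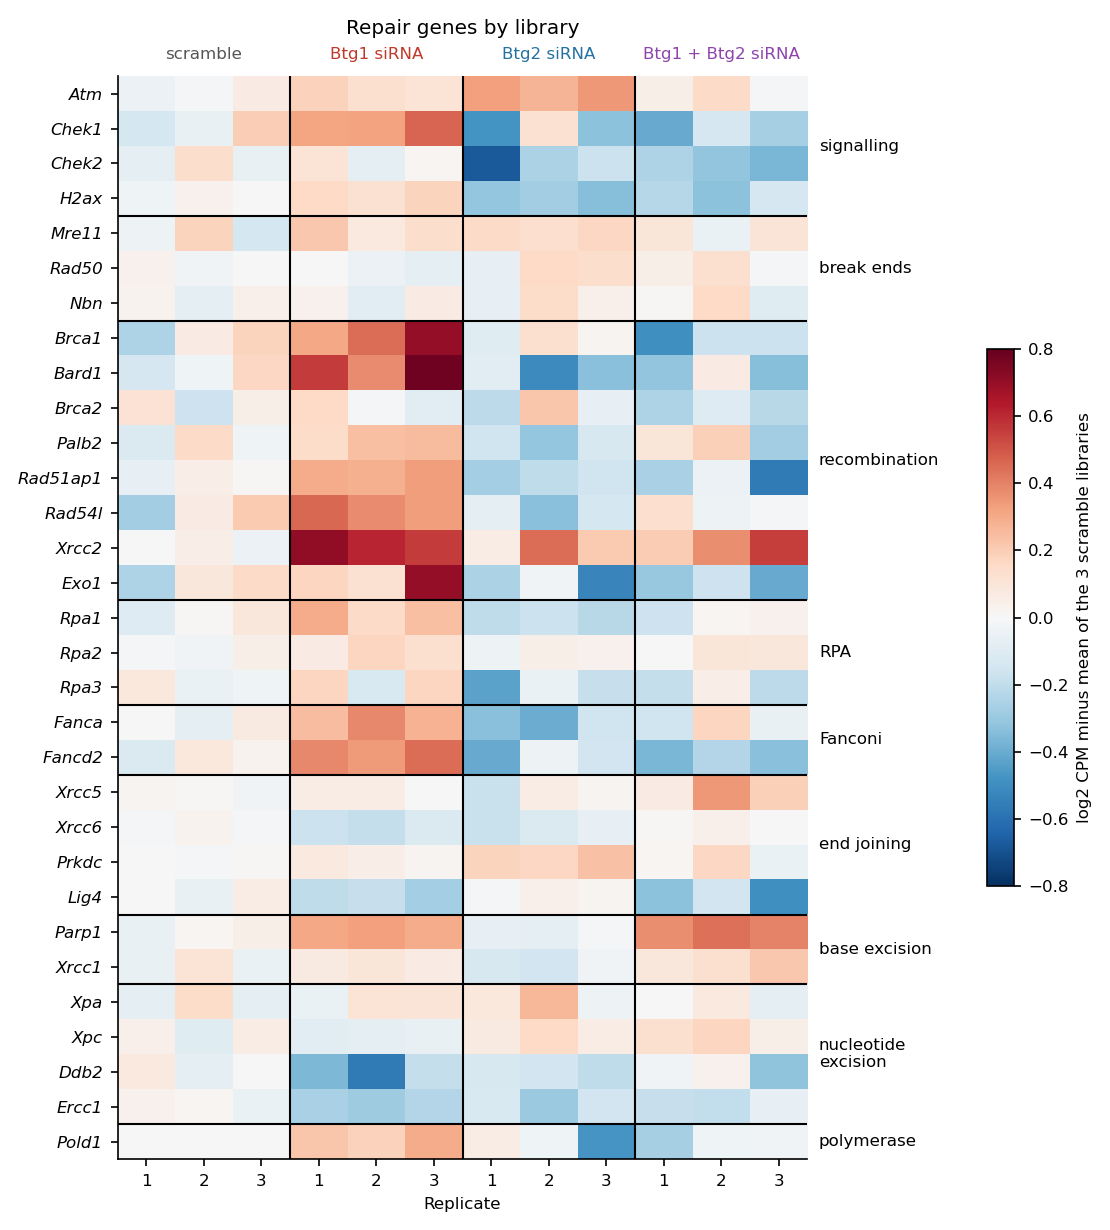
Log2 CPM of each member in each library minus the mean of the 3 scramble libraries, with genes in rows by role and libraries in columns by group. Red in the Btg1 columns is concentrated in the recombination and Fanconi rows, Parp1 is red in both groups with the Btg1 siRNA, and the break-end rows stay pale.

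A shape that recurred was a level in which every Btg1 knockdown library lay above all 9 other libraries. It was found in 11 of 31 members, 35.5%, beside 6.24% of all tested genes, and no member had every Btg1 knockdown library below the other 9 (5.78% of all genes). These 11 were Chek1, H2ax, Brca1, Bard1, Rad51ap1, Rad54l, Xrcc2, Rpa1, Fanca, Fancd2 and Pold1. The sorting was chosen after the values were seen and is given as a description. In the other groups no such shape took in more than 2 members. Btg2 knockdown libraries were highest for Atm and Prkdc (7.87% of all genes) and lowest for Rpa1 and Fanca (6.16%), and double knockdown libraries were highest for Xrcc5 and Parp1 (4.63%) and lowest for 0 members (3.89%). In the deposited TPM the Prkdc order did not hold, and the Xrcc5 and Fanca orders became ties. All 6 libraries with the Btg2 siRNA were above the rest for 0 members (2.99%). The Btg1 knockdown shape held for 11 members with RLE scaling and for 10 with library size alone or in the deposited TPM.

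**Figure D3:**
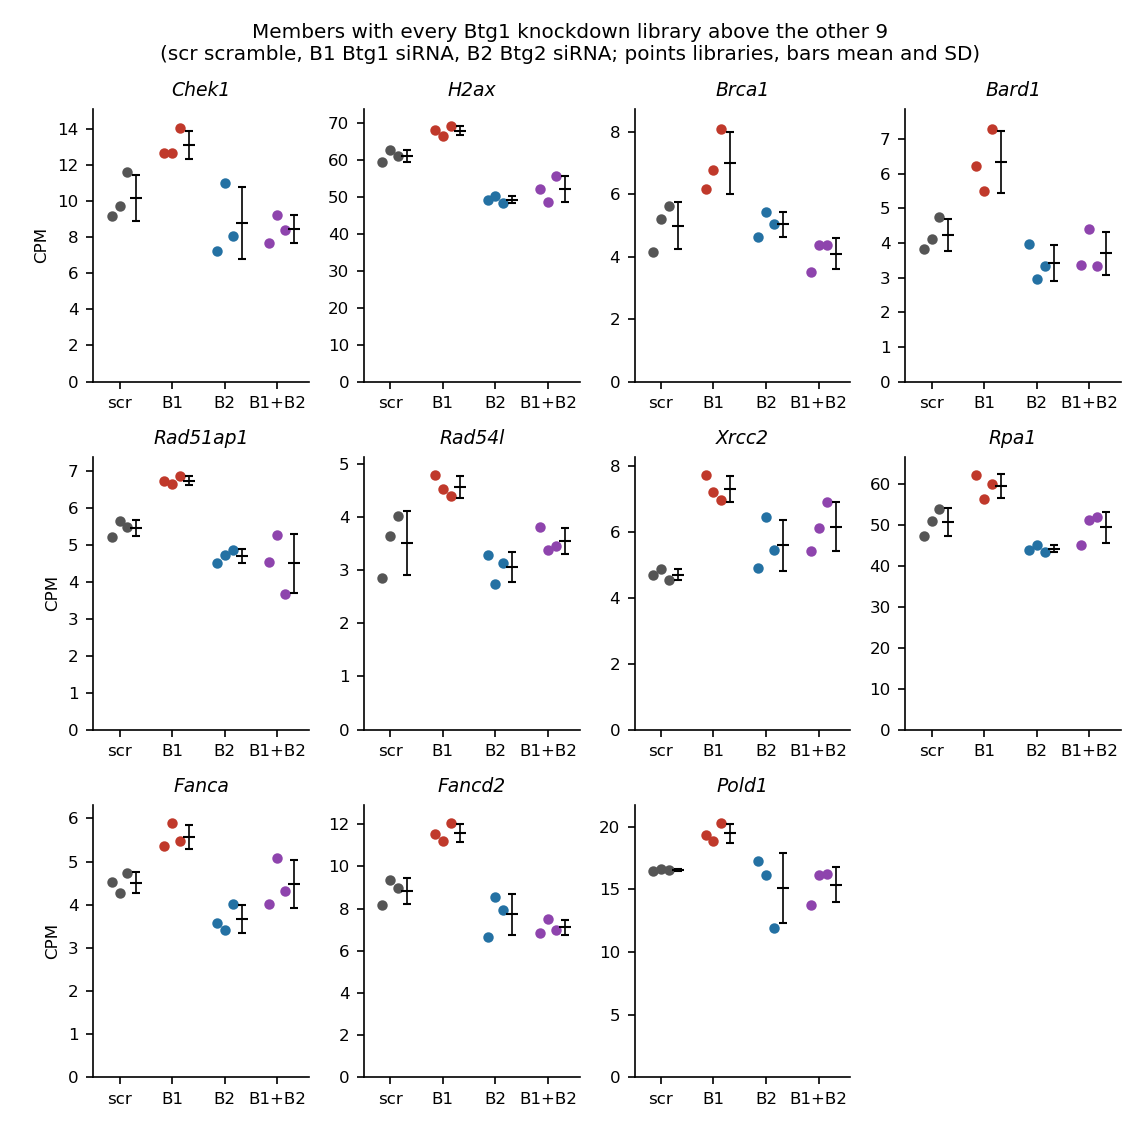
CPM of the 11 members whose 3 Btg1 knockdown libraries (B1) lie above the 9 others, with 1 point per library and bars for mean and SD (n = 3 per group); genes were picked for this shape. H2ax and Rpa1 are the most abundant, and in each panel the double knockdown points (B1+B2) lie below the B1 points.

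The genes of damage signalling came first. Chek1, the checkpoint kinase that acts downstream of ATR, measured 9.17, 9.73 and 11.6 CPM in scramble libraries, 12.6, 12.7 and 14.0 after Btg1 siRNA, 7.24, 11 and 8.05 after Btg2 siRNA and 7.65, 9.20 and 8.41 after both. Btg1 knockdown raised it by 0.36 ± 0.12 (log2, SE, edgeR adjusted p = 0.022) and was lower by -0.64 ± 0.12 in the double than in the Btg1 knockdown (edgeR adjusted p = 6.1e-04). The second Btg2 knockdown library overlapped the scramble range while the other 2 lay below it.

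H2ax measured 59.6, 62.6 and 61.1 CPM in scramble libraries, 68.1, 66.6 and 69.3 after Btg1 siRNA, 49.3, 50.4 and 48.3 after Btg2 siRNA and 52.1, 48.6 and 55.6 after both. No library of either group that had the Btg2 siRNA reached the others. H2ax rose by 0.15 ± 0.05 in the Btg1 knockdown (edgeR adjusted p = 0.017) and fell in the Btg2 knockdown (-0.31 ± 0.05, adjusted p = 6.1e-05) and in the double knockdown (-0.23 ± 0.05, adjusted p = 7.3e-04). Against the Btg1 knockdown the double was lower by -0.38 ± 0.05 (edgeR adjusted p = 6.3e-06).

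Chek2, the checkpoint kinase that ATM activates, measured 5.18, 6.04 and 5.24 CPM in scramble libraries, 5.91, 5.18 and 5.54 after Btg1 siRNA, 3.41, 4.59 and 4.85 after Btg2 siRNA and 4.60, 4.39 and 4.24 after both. All 6 libraries with the Btg2 siRNA were below all 6 without it, a shape held by 6.45% of members and 3.47% of all genes. The fall of -0.37 ± 0.13 in the Btg2 knockdown passed (edgeR adjusted p = 0.043), and that of -0.32 ± 0.13 in the double did not (adjusted p = 0.060).

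Atm, the kinase recruited to double-strand breaks, had another order of groups. It measured 22.1, 22.5 and 23.9 CPM in scramble libraries, 25.9, 24.9 and 24.6 after Btg1 siRNA, 28.7, 27.5 and 29.0 after Btg2 siRNA and 23.6, 25.3 and 22.6 after both. The Btg2 knockdown libraries stood above the 9 others, a change of 0.32 ± 0.06 (edgeR adjusted p = 3.8e-04), and the double was lower than the Btg2 knockdown by -0.26 ± 0.06 (adjusted p = 0.0023). With limma on the deposited TPM this last difference did not pass (adjusted p up to 0.090).

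Among these signalling calls, Chek1 in the Btg1 knockdown was lost without scramble replicate 1 or 2 or Btg1 knockdown replicate 3 (edgeR adjusted p up to 0.108). H2ax in the Btg1 knockdown was lost without scramble replicate 1 or Btg1 knockdown replicate 3 (adjusted p up to 0.079). Chek2 was lost without any 1 of the scramble libraries, without Btg2 knockdown replicate 1 or 2 and with the replicate block (adjusted p up to 0.265).

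The complex that binds broken ends, formed by Mre11, Rad50 and Nbn, gave 0 calls of 3 in edgeR, DESeq2 and limma in every comparison. Mre11, its nuclease, ranged from 12.1 to 15.5 CPM over the 12 libraries, Rad50, its ATPase, from 42.7 to 49.99 and Nbn, its ATM-binding subunit, from 53.2 to 63.6. The largest of their changes from scramble was 0.14 ± 0.09 for Mre11 in the Btg2 knockdown (edgeR adjusted p = 0.215).

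Recombination genes were all higher than scramble in the Btg1 knockdown in point estimate, 8 of 8, and 4 passed: Brca1, Bard1, Rad54l and Xrcc2. Over all 12535 tested genes 6242 estimates were positive and 18.7% were called higher. Of the 19 other recombination genes tested, 0 rose and 2 fell in edgeR (5 had an unadjusted p under 0.05). The median log2 change of the 8 members was 0.36 in the Btg1 knockdown, compared with -0.19 in the Btg2 knockdown, where 0 passed. For the 19 others these medians were 0.05 and -0.15. In the double against the Btg1 knockdown all 8 were lower, with a median of -0.48, and 4 passed: Brca1, Bard1, Rad51ap1 and Exo1. Over all genes 6303 estimates were negative and 11.9% were called lower. Both comparisons use the same Btg1 knockdown libraries.

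Brca1, which steers breaks into recombination, measured 4.16, 5.20 and 5.63 CPM in scramble libraries, 6.16, 6.77 and 8.10 after Btg1 siRNA, 4.63, 5.44 and 5.04 after Btg2 siRNA and 3.52, 4.39 and 4.39 after both. The change was 0.48 ± 0.14 in the Btg1 knockdown (edgeR adjusted p = 0.0075) and -0.00 ± 0.14 in the Btg2 knockdown (adjusted p = 0.99). With both siRNAs it was lower than in the Btg1 knockdown by -0.77 ± 0.14 (edgeR adjusted p = 2.7e-04).

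Bard1, the partner with which Brca1 forms a ubiquitin ligase, measured 3.84, 4.12 and 4.74 CPM in scramble libraries, 6.23, 5.5 and 7.28 after Btg1 siRNA, 3.98, 2.95 and 3.33 after Btg2 siRNA and 3.38, 4.42 and 3.32 after both. Bard1 rose by 0.58 ± 0.15 in the Btg1 knockdown (edgeR adjusted p = 0.0030), and the double was lower than the Btg1 knockdown by -0.77 ± 0.15 (adjusted p = 4.9e-04). For both Brca1 and Bard1 the third Btg1 knockdown library was the highest of all 12.

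Xrcc2, a recombination gene, showed the largest rise among the members. It measured 4.70, 4.88 and 4.55 CPM in scramble libraries, 7.74, 7.22 and 6.96 after Btg1 siRNA, 4.91, 6.45 and 5.45 after Btg2 siRNA and 5.43, 6.11 and 6.92 after both. Scramble libraries were below the 9 others in CPM (8.18% of all genes), although in TPM the second equals the first Btg2 knockdown library (2.7). The double knockdown was higher than scramble too (0.39 ± 0.12, edgeR adjusted p = 0.015) beside 0.64 ± 0.12 in the Btg1 knockdown (adjusted p = 2.3e-04).

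Rad54l, a DNA motor protein of recombination, measured 2.85, 3.64 and 4.02 CPM in scramble libraries, 4.78, 4.51 and 4.38 after Btg1 siRNA, 3.28, 2.74 and 3.13 after Btg2 siRNA and 3.81, 3.37 and 3.45 after both. Its rise of 0.38 ± 0.14 in the Btg1 knockdown passed narrowly (edgeR adjusted p = 0.037). Rad51ap1, a recombination cofactor, measured 5.21, 5.66 and 5.49 CPM in scramble libraries, 6.72, 6.64 and 6.88 after Btg1 siRNA, 4.5, 4.72 and 4.87 after Btg2 siRNA and 4.54, 5.28 and 3.67 after both. Its Btg1 difference of 0.30 ± 0.12 did not pass (edgeR adjusted p = 0.052), although its groups did not overlap, as was so for 50.1% of all genes. The double was lower than the Btg1 knockdown by -0.59 ± 0.12 (edgeR adjusted p = 0.0012).

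Exo1, the nuclease that resects ends, measured 1.95, 2.48 and 2.58 CPM in scramble libraries, 2.61, 2.52 and 3.80 after Btg1 siRNA, 1.94, 2.28 and 1.59 after Btg2 siRNA and 1.87, 2.06 and 1.74 after both. Only the difference between the double and the Btg1 knockdown passed (-0.65 ± 0.19, edgeR adjusted p = 0.017). Brca2, a mediator of recombination, and Palb2, which links it to Brca1, gave 0 calls, with ranges of 3.92 to 5.44 and 2.70 to 4 CPM over the 12 libraries.

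Several recombination calls depended on single libraries. Brca1 in the Btg1 knockdown was lost without scramble replicate 1 or Btg1 knockdown replicate 3 (edgeR adjusted p up to 0.059), and Rad54l there was lost without scramble replicate 1 or 2, without any 1 Btg1 knockdown library and with limma (adjusted p up to 0.203). Xrcc2 in the double knockdown was lost without its replicate 3 (edgeR adjusted p = 0.086). Exo1 was lost without Btg1 knockdown replicate 3, without double knockdown replicate 3 and with limma (adjusted p up to 0.137).

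Replication protein A coats single-stranded DNA. Its largest subunit gene, Rpa1, measured 47.3, 51.0 and 54.0 CPM in scramble libraries, 62.3, 56.3 and 60.0 after Btg1 siRNA, 44.0, 45.1 and 43.4 after Btg2 siRNA and 45.1, 51.2 and 51.9 after both. Rpa1 rose in the Btg1 knockdown (0.23 ± 0.06, edgeR adjusted p = 0.0034) and fell in the Btg2 knockdown (-0.20 ± 0.06, adjusted p = 0.013). The double was lower than the Btg1 knockdown by -0.27 ± 0.06 (edgeR adjusted p = 0.0017) and higher than the Btg2 knockdown by 0.16 ± 0.06 (adjusted p = 0.040). The Btg2 fall was lost without scramble replicate 3 or Btg2 knockdown replicate 3 (edgeR adjusted p up to 0.087). The last difference was lost in 6 of 15 alternatives, namely a fit of the compared groups alone, and the loss of any 1 Btg2 knockdown library or of double knockdown replicate 2 or 3 (adjusted p up to 0.143). Rpa2 and Rpa3, the smaller subunits, gave 0 calls, with ranges of 22.1 to 25.6 and 5.25 to 7.98 CPM.

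In the Fanconi pathway, Fancd2, the subunit ubiquitinated at crosslinks, measured 8.15, 9.37 and 8.99 CPM in scramble libraries, 11.5, 11.2 and 12 after Btg1 siRNA, 6.67, 8.56 and 7.93 after Btg2 siRNA and 6.84, 7.50 and 6.97 after both. It rose by 0.39 ± 0.10 in the Btg1 knockdown (edgeR adjusted p = 0.0030) and fell by 0.32 in the double against scramble (SE 0.10, adjusted p = 0.016). The step from the Btg1 to the double knockdown was -0.71 ± 0.10 (edgeR adjusted p = 1.7e-05), the smallest p of any member in that comparison after H2ax. The fall against scramble was lost without scramble replicate 2 or double knockdown replicate 1 (edgeR adjusted p up to 0.078).

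Fanca, called in no comparison and shown in full after its values were seen, is of the core complex that carries out that ubiquitination. It measured 4.52, 4.27 and 4.74 CPM in scramble libraries, 5.36, 5.89 and 5.48 after Btg1 siRNA, 3.57, 3.41 and 4.03 after Btg2 siRNA and 4.03, 5.10 and 4.32 after both. Every Btg1 knockdown library was above the 9 others. Every Btg2 knockdown library was below the rest, the third by less than the rounding, and in TPM it equals the first double knockdown library. Neither difference from scramble passed (0.31 ± 0.12 and -0.29 ± 0.13, edgeR adjusted p = 0.056 and 0.10).

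Pold1, the catalytic subunit of the replicative DNA polymerase delta that also fills repair gaps, measured 16.5, 16.6 and 16.6 CPM in scramble libraries, 19.3, 18.8 and 20.3 after Btg1 siRNA, 17.2, 16.1 and 11.9 after Btg2 siRNA and 13.8, 16.1 and 16.2 after both. Its difference from scramble in the Btg1 knockdown did not pass (0.23 ± 0.10, edgeR adjusted p = 0.070), while the double was lower than the Btg1 knockdown by -0.34 ± 0.10 (adjusted p = 0.017). That call was lost without Btg1 knockdown replicate 3 or double knockdown replicate 1 (edgeR adjusted p up to 0.082).

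End joining genes did not share that shape. Xrcc5 and Xrcc6 encode the Ku heterodimer that caps broken ends. Xrcc6 measured 28.6, 29.3 and 28.5 CPM in scramble libraries, 25.6, 25.2 and 26.6 after Btg1 siRNA, 25.4, 26.6 and 27.5 after Btg2 siRNA and 29.0, 29.6 and 28.7 after both. Single knockdowns were thus below scramble and the double beside it. The Btg1 difference passed (-0.16 ± 0.06, edgeR adjusted p = 0.025) and the Btg2 difference did not (-0.12 ± 0.06, adjusted p = 0.11). Xrcc6 was higher in the double than in the Btg1 knockdown (0.18 ± 0.06, edgeR adjusted p = 0.024).

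Xrcc5 measured 33.3, 32.9 and 32.1 CPM in scramble libraries, 34.2, 34.1 and 32.8 after Btg1 siRNA, 28.9, 34.1 and 33.3 after Btg2 siRNA and 34.3, 41.7 and 37.4 after both. The double stood above the other 9 libraries in CPM, although in TPM its first library equals the first Btg1 knockdown library (27.4). The double was higher than scramble by 0.21 ± 0.07 (edgeR adjusted p = 0.017) and than the Btg2 knockdown by 0.24 ± 0.07 (adjusted p = 0.0082). Without scramble replicate 3 or double knockdown replicate 2 the first was lost (edgeR adjusted p up to 0.142), and without Btg2 knockdown replicate 1 or double knockdown replicate 2 the other was lost (adjusted p up to 0.080).

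Prkdc, the catalytic subunit of DNA-PK, measured 37.2, 37.0 and 37.5 CPM in scramble libraries, 39.2, 38.6 and 37.8 after Btg1 siRNA, 42.1, 41.7 and 43.9 after Btg2 siRNA and 37.6, 41.7 and 35.9 after both. Like Atm, a kinase of the same family, it was highest in CPM in the 3 Btg2 knockdown libraries. There the second double knockdown library differs from the nearest of them by less than the rounding. In TPM that library (6.5) was above the second Btg2 knockdown library (6.3). The Btg2 knockdown was higher than scramble by 0.19 ± 0.06 (edgeR adjusted p = 0.0099). The double was lower than the Btg2 knockdown by -0.15 ± 0.05 (edgeR adjusted p = 0.039), a call lost in 10 of 15 alternatives (adjusted p up to 0.269), among them without any 1 Btg2 knockdown library. The rise was lost without Btg2 knockdown replicate 3 and with limma (adjusted p up to 0.128).

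Lig4, the ligase that seals joined ends, measured 30.9, 29.7 and 32.3 CPM in scramble libraries, 26.9, 27.2 and 25.6 after Btg1 siRNA, 30.6, 31.8 and 31.4 after Btg2 siRNA and 24.6, 27.9 and 22.0 after both. All 6 libraries with the Btg1 siRNA were below all 6 without it, which was so for 7.71% of all genes. Lig4 fell in the Btg1 knockdown (-0.22 ± 0.07, edgeR adjusted p = 0.015) and in the double knockdown against scramble (-0.32 ± 0.07, adjusted p = 7.2e-04) and against the Btg2 knockdown (-0.33 ± 0.07, adjusted p = 6.5e-04). The Xrcc6 fall in the Btg1 knockdown was lost without scramble replicate 1 or 2 or Btg1 knockdown replicate 1 or 2 (edgeR adjusted p up to 0.086). Its rise in the double against the Btg1 knockdown was lost without Btg1 knockdown replicate 1 or 2, without double knockdown replicate 2 and with only the groups compared (adjusted p up to 0.077). The Lig4 fall in the Btg1 knockdown was lost without scramble replicate 3 or Btg1 knockdown replicate 3 (edgeR adjusted p up to 0.074).

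Parp1 gave the smallest p-values of the set. It measured 155, 164 and 167 CPM in scramble libraries, 201, 204 and 199 after Btg1 siRNA, 155, 154 and 161 after Btg2 siRNA and 210, 220 and 213 after both. All 6 libraries with the Btg1 siRNA were above all 6 without it, which was so for 6.51% of all genes. The log2 rise was 0.31 ± 0.04 in the Btg1 knockdown (edgeR adjusted p = 7.0e-07), 0.40 ± 0.04 in the double (adjusted p = 1.4e-08) and 0.45 ± 0.04 in the double against the Btg2 knockdown (adjusted p = 3.8e-09), and each held in all 15 alternatives run for it. In the Btg2 knockdown the change was -0.05 ± 0.04 (edgeR adjusted p = 0.35).

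Xrcc1, the scaffold that PARP1 activity recruits to nicks, measured 40.0, 44.9 and 40.1 CPM in scramble libraries, 43.6, 44.4 and 43.6 after Btg1 siRNA, 38.1, 37.4 and 40.7 after Btg2 siRNA and 44.4, 45.5 and 48.4 after both. It was higher in the double than in the Btg2 knockdown (0.25 ± 0.06, edgeR adjusted p = 0.0013). Against scramble the groups overlapped, and the rise of 0.15 ± 0.06 (edgeR adjusted p = 0.040) was lost in 6 of 15 alternatives, among them without scramble replicate 1 or 3, without double knockdown replicate 2 or 3 and with library size alone (adjusted p up to 0.160).

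Nucleotide excision repair removes bulky lesions. Ercc1, a subunit of the nuclease that cuts 5′ of the lesion, measured 33.0, 32.6 and 31.1 CPM in scramble libraries, 27.0, 26.4 and 27.4 after Btg1 siRNA, 29.7, 26.2 and 29.0 after Btg2 siRNA and 28.4, 28.1 and 30.8 after both. Scramble was above the 9 other libraries (7.11% of all genes). Ercc1 fell in the Btg1 knockdown (-0.26 ± 0.06, edgeR adjusted p = 0.0013) and the Btg2 knockdown (-0.18 ± 0.06, adjusted p = 0.022), while the double did not pass (-0.15 ± 0.06, adjusted p = 0.052). The Btg2 fall was lost without scramble replicate 1 or 2 or Btg2 knockdown replicate 2 (edgeR adjusted p up to 0.119).

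Ddb2, a damage sensor for ultraviolet lesions, measured 5.48, 4.95 and 5.19 CPM in scramble libraries, 4.04, 3.50 and 4.56 after Btg1 siRNA, 4.76, 4.68 and 4.51 after Btg2 siRNA and 5.11, 5.33 and 4.14 after both. It fell in the Btg1 knockdown (-0.37 ± 0.13, edgeR adjusted p = 0.029), a call lost without scramble replicate 1 or 3 or Btg1 knockdown replicate 1 or 2 (adjusted p up to 0.140).

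Xpc, which recognises helix distortion, measured 27.1, 24.6 and 27.5 CPM in scramble libraries, 24.8, 25.0 and 25.3 after Btg1 siRNA, 27.7, 29.5 and 27.5 after Btg2 siRNA and 28.8, 29.7 and 27.3 after both. Only the double against the Btg1 knockdown passed (0.19 ± 0.06, edgeR adjusted p = 0.024), and it was lost without any 1 Btg1 knockdown library or without double knockdown replicate 1 or 2 (adjusted p up to 0.094). Xpa, the scaffold of the pathway, ranged from 7.55 to 9.61 CPM and gave 0 calls.

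**Figure D4:**
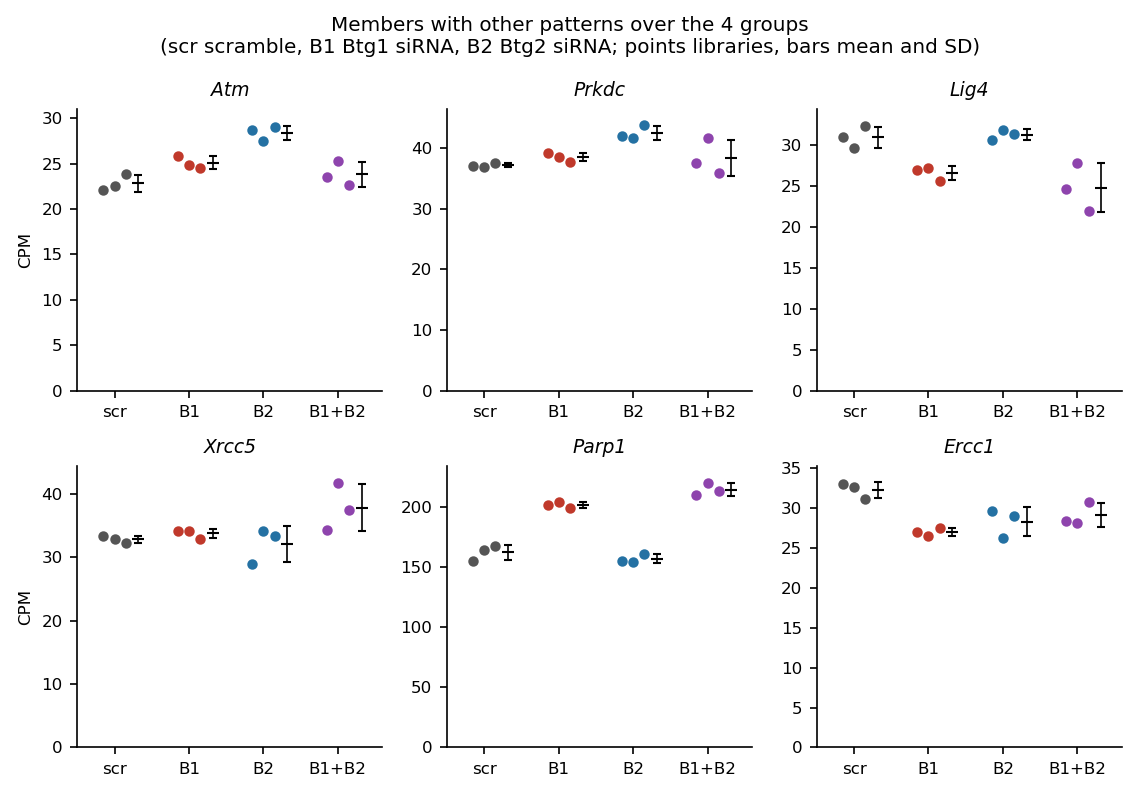
CPM of Atm, Prkdc, Lig4, Xrcc5, Parp1 and Ercc1, with 1 point per library and bars for mean and SD (n = 3 per group). Atm is highest with the Btg2 siRNA alone (B2), as is Prkdc apart from 1 double knockdown point level with the lowest B2 point. Parp1 is high and Lig4 low in both groups with the Btg1 siRNA (B1 and B1+B2), and Ercc1 is highest in scramble.

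Whether the 2 siRNAs added up was asked with an interaction term, the effect of the Btg2 siRNA with the Btg1 siRNA minus its effect without. The targets departed too, Btg2 by -0.65 ± 0.06 (edgeR adjusted p = 1.4e-07) and Btg1 by -0.44 ± 0.06 (adjusted p = 2.9e-05). The Btg2 siRNA changed Btg2 by -0.70 ± 0.04 from scramble and by -1.35 ± 0.04 from the Btg1 knockdown. Knockdown was thus unequal in these settings, and its part in the member results was not tested. Of 31 members 5 departed, 2 upward and 3 downward, which is 16.1% beside 15.1% of all genes (4.99% upward, 10.1% downward). Brca1 departed by -0.76 ± 0.20 (edgeR adjusted p = 0.010): the Btg2 siRNA left it at -0.00 ± 0.14 from scramble on its own and at -0.77 ± 0.14 from the Btg1 knockdown. Fancd2 departed by -0.50 ± 0.14 (adjusted p = 0.020) and Atm by -0.40 ± 0.09 (adjusted p = 0.0029). The sign differed for Xrcc6 (0.30 ± 0.08, edgeR adjusted p = 0.012) and Ercc1 (0.30 ± 0.08, adjusted p = 0.020), whose single knockdowns were lower than scramble while the double lay nearer to it. The remaining recombination genes had negative estimates that did not pass, from -0.00 ± 0.22 for Palb2 to -0.48 ± 0.17 for Xrcc2 and -0.48 ± 0.21 for Bard1 (edgeR adjusted p = 1.0, 0.062 and 0.14).

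The departure count was 3 with limma on log2(TPM + 1), 2 with limma on log2(TPM + 0.1), and 3 without scramble replicate 1 or Btg2 knockdown replicate 2. Atm was lost with limma on either TPM scale (adjusted p up to 0.102) and Brca1 with limma on log2(TPM + 0.1) (adjusted p = 0.051). Fancd2 was lost with limma and without scramble replicate 1, Btg1 knockdown replicate 3 or Btg2 knockdown replicate 2 or 3 (adjusted p up to 0.065), and Ercc1 without scramble replicate 1 or Btg2 knockdown replicate 2 (edgeR adjusted p up to 0.059).

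**Figure D5:**
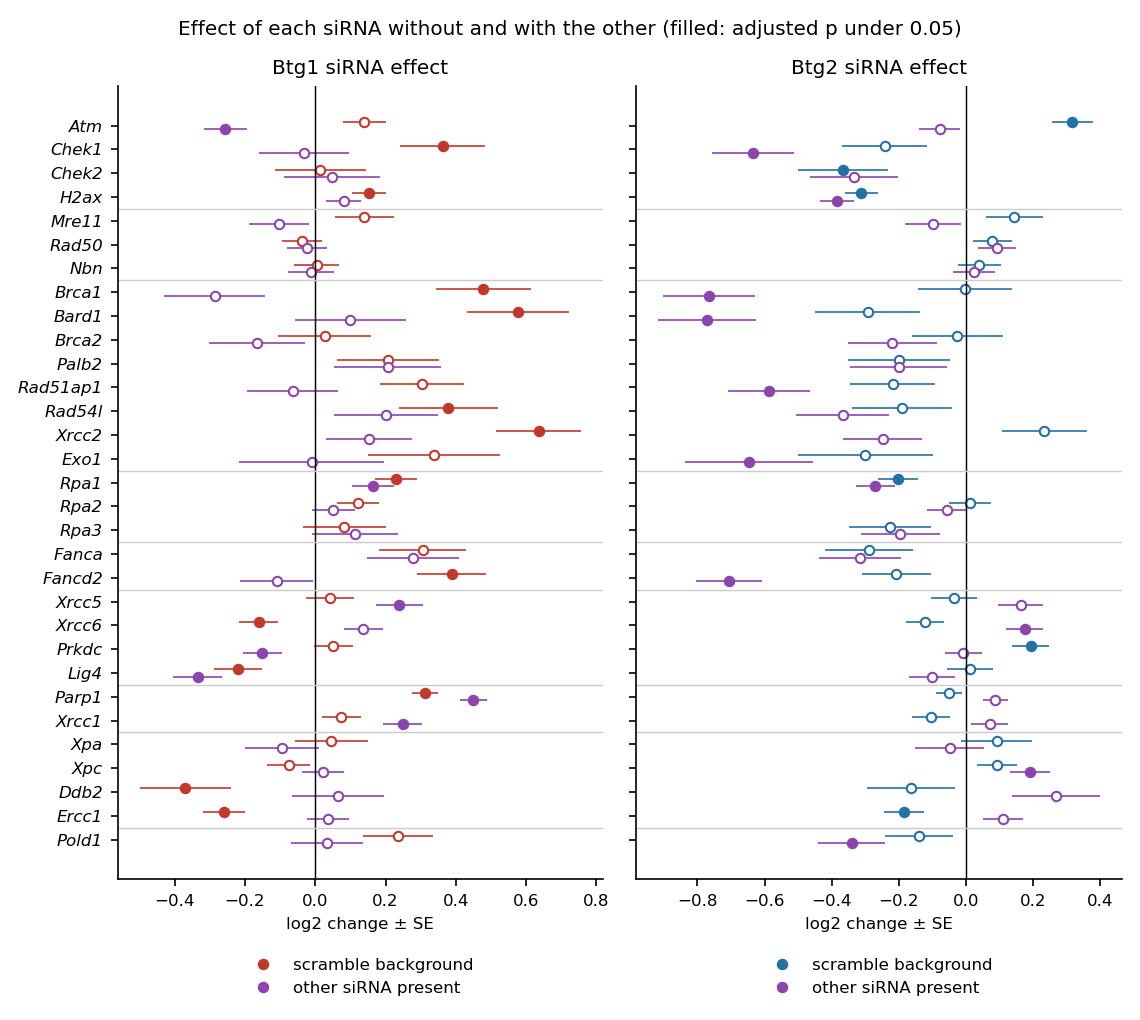
Log2 change with SE of each member for the Btg1 siRNA (left) and the Btg2 siRNA (right), each added to scramble or to the other siRNA; filled points have an adjusted p under 0.05. On the right, Bard1, Brca1, Fancd2, Exo1 and Chek1 lie furthest left once the Btg1 siRNA is present, at -0.77, -0.77, -0.71, -0.65 and -0.64.

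As background to the recombination genes, 32 genes of DNA replication and mitosis were read beside them. In the Btg1 knockdown 21 of 32 were higher and 0 lower (65.6% higher beside 18.7% of all genes), and in the Btg2 knockdown 0 were higher and 23 lower (71.9% lower beside 13.6%). With both siRNAs 1 was higher and 24 lower than scramble (24 being 75.0% beside 19.5%), and 30 of 32 were lower than in the Btg1 knockdown (93.8% beside 11.9%). E2f1, a driver of S-phase transcription, changed by 0.62 ± 0.11, -0.39 ± 0.12 and -0.34 ± 0.11 in the Btg1, Btg2 and double knockdowns (edgeR adjusted p = 1.3e-04, 0.015 and 0.022), and Mcm6, a subunit of the replicative helicase, by 0.50 ± 0.08, -0.38 ± 0.08 and -0.21 ± 0.08 (adjusted p = 2.3e-05, 0.0012 and 0.041). Ccnb1, the mitotic cyclin, changed by 0.41 ± 0.08, -0.37 ± 0.09 and -0.32 ± 0.09 (edgeR adjusted p = 4.1e-04, 0.0027 and 0.0053).

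By library, the mean log2 level of the 8 recombination genes relative to scramble was 0.35, 0.31 and 0.45 after Btg1 siRNA, -0.14, -0.07 and -0.14 after Btg2 siRNA, and -0.15, 0.01 and -0.18 after both. The mean of the 32 proliferation genes was 0.27, 0.16 and 0.41, then -0.41, -0.27 and -0.32, then -0.42, -0.25 and -0.34 in the same libraries. Scramble libraries stood at -0.12, 0.04 and 0.09 for recombination and -0.12, 0.00 and 0.12 for proliferation. In both lists the third Btg1 knockdown library was the highest of the 12 and the first scramble library the lowest of its group. The part of these genes in the recombination result was not tested. The proliferation falls in the Btg2 knockdown numbered 14 without scramble replicate 3 or Btg2 knockdown replicate 1, and those called in the double against scramble numbered 16 in all without scramble replicate 3.

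Promoter sequence was read for the 24 of 31 members with an entry in the RefSeq promoter table of the rat assembly GRCr8, 250 bases before to 50 bases after the annotated start. The letters searched on both strands were the E2F forms TTTGGCGC, TTTCCCGC, TTTGCCGC and TTTCGCGC, the E2F family being the factors that switch on S-phase genes. An exact match occurred in 5 of 24 members (20.8%) beside 716 of 33365 distinct promoters of that length (2.15%). It occurred in 3 of 8 members called higher in the Btg1 knockdown that have an entry and in 2 of the other 16. The 33365 promoters were not matched to the members for expression or base composition. A match is a run of letters and not a measured binding site. The 30-base stretch around each match is shown with the match in capitals, since these are the members that share the letters; Chek1, Bard1 and Fancd2 rose in the Btg1 knockdown, while Atm and Rpa2 did not pass there.
Chek1: agcaggttttgGCGGGAAAagctgtgcact
Bard1: gtgccgctctgTTTCCCGCtcaggaagttt
Fancd2: gcgtccgacaaGCGGGAAAgtcgaaaacga
Atm: gatccgtgcacGCGGGAAAaggcgaagcga
Rpa2: gccacgccggaGCGGCAAAcacttcttaag
The match began 28 bases upstream of the start in Chek1, 205 in Bard1 and 239 in Atm, and 9 bases downstream of it in Fancd2 and 7 in Rpa2.

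The whole 300-base promoter is given for the 4 members with the smallest p in the Btg1 knockdown or in the departure from additivity among those with an entry in the table (Xrcc2 has none), and for Rad50 of the break-end complex, which gave no call. Capitals mark the E2F letters above, CCAAT, the GC box GGGCGG and the letters TTTGAA, on either strand; of these only the E2F letters and the GC box occur in the 5 windows. They lie at chr13:94839234-94839533 on the plus strand (Parp1), chr8:62828580-62828879 on the minus strand (Atm), chr1:88124491-88124790 on the plus strand (Ercc1), chr4:148234458-148234757 on the plus strand (Fancd2) and chr10:38362051-38362350 on the minus strand (Rad50), all in GRCr8.
Parp1: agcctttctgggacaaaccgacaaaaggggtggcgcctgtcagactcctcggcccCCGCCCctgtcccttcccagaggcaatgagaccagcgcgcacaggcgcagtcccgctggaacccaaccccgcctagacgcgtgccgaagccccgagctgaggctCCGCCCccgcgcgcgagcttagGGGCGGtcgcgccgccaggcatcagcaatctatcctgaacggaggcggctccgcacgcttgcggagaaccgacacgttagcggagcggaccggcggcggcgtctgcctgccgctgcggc
Atm: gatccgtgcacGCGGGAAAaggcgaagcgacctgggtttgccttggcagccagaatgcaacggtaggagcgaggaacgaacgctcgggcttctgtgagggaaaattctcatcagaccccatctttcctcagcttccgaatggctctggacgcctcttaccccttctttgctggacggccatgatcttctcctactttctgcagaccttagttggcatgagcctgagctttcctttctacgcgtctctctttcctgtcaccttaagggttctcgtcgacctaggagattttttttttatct
Ercc1: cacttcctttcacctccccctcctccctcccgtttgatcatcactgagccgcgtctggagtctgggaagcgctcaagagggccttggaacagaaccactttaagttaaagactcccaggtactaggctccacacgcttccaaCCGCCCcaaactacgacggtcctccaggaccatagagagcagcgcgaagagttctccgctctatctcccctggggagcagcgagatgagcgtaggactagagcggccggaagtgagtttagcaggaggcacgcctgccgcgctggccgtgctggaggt
Fancd2: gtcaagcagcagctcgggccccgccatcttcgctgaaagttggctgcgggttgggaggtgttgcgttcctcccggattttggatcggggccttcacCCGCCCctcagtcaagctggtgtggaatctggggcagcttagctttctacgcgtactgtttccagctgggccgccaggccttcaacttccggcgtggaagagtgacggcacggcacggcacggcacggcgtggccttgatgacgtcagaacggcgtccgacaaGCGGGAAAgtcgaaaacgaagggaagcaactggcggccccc
Rad50: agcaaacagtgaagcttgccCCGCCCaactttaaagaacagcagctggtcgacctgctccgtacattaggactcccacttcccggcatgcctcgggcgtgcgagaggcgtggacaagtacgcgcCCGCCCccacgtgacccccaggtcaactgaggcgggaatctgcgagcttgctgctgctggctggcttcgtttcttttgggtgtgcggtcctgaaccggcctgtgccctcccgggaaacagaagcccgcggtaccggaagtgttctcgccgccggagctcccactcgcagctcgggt
Parp1 holds 3 GC boxes, Rad50 holds 2, and Ercc1 and Fancd2 hold 1 each. The GC box occurs in 33.1% of all promoters in the table, CCAAT in 37.5% and TTTGAA in 18.3%. Among the 24 members with an entry these shares were 58.3%, 45.8% and 16.7%.

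The other genes of the repair pathways, 106 tested of 123 listed, were read in the same fit. In the Btg1 knockdown 14 rose and 15 fell (27.4% beside 36.5% of all genes), in the Btg2 knockdown 11 rose and 12 fell (21.7% beside 30.0%; 9 rose and 17 fell with library size alone), and in the double 12 rose and 16 fell (26.4% beside 38.9%). Parp3, a relative of Parp1, rose in all of them, by 0.31 ± 0.04, 0.28 ± 0.04 and 0.58 ± 0.04 (edgeR adjusted p = 2.7e-06, 2.2e-05 and 2.0e-10). Hipk2, a kinase that phosphorylates p53, rose by 0.62 ± 0.06, 0.79 ± 0.06 and 0.35 ± 0.06 (edgeR adjusted p = 1.7e-08, 1.2e-09 and 4.1e-05). Its departure from additivity was the largest of the repair genes named here (-1.05 ± 0.08, edgeR adjusted p = 1.2e-08). A base excision gene not named here reached -1.10 without being called.

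Rbbp8, which starts end resection with the Mre11 complex, was lower in the Btg1 and double knockdowns (-0.40 ± 0.07 and -0.43 ± 0.07, edgeR adjusted p = 1.6e-04 and 6.1e-05). Nabp1, a single-strand binding protein, changed by -0.49 ± 0.06 and -0.31 ± 0.06 there (edgeR adjusted p = 7.8e-07 and 1.7e-04) and by 0.18 ± 0.06 in the Btg2 knockdown (adjusted p = 0.022). Gtf2h5, the smallest TFIIH subunit, fell by 0.24 in the Btg1 knockdown and by 0.52 in the double (log2, edgeR adjusted p = 0.0011 and 1.1e-07). In the step from the Btg1 to the double knockdown, 9 of the 106 rose and 14 fell (21.7% beside 22.3% of all genes). Between the double and the Btg2 knockdown 11 rose and 14 fell (23.6% beside 32.2% of all genes, 15.2% risen and 17.0% fallen), or 16 and 11 with library size alone. In the departure from additivity 2 rose and 3 fell (4.72% beside 15.1%).

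Cell type markers were also called in these groups. Of all genes, 18.7%, 16.4% and 19.4% were called higher in the Btg1, Btg2 and double knockdowns, and 17.8%, 13.6% and 19.5% lower. Fibroblast markers were lower in 9 of 11 in the Btg1 knockdown and 10 of 11 in the double (5 lower and 1 higher in the Btg2 knockdown), with summed levels of 6634 to 7554 and 6603 to 7494 TPM beside 8225 to 8424 in scramble and 8156 to 8358 in the Btg2 knockdown. Endothelial markers were lower in 2 of 10 in the Btg1 knockdown (20%, near the share of all genes) and higher in 1. They were lower in 4 in the Btg2 knockdown (40%), and lower in 8 (80%) and higher in 1 in the double. Their sum was 55.0 to 59.8 TPM in the double beside 74.3 to 81.0 in scramble. Leukocyte markers were lower in 2, 6 and 2 of 12 in the Btg1, Btg2 and double knockdowns (16.7%, 50% and 16.7%). In the Btg1 and double knockdowns that was near the share of all genes. No marker of these lists was at 0 in all 12 libraries. Heart muscle markers gave 5 rises and 4 falls of 13 in the Btg1 knockdown 5 rises in the Btg2 knockdown, and 3 rises and 3 falls in the double. Smooth muscle markers gave 3, 2 and 4 rises and 1 fall each of 7 in the Btg1, Btg2 and double knockdowns, and summed to 5504 to 6477, 5217 to 5699 and 5343 to 5610 TPM beside 4571 to 4842 in scramble. Cnn1, a calponin of contractile cells, rose by 1.45 ± 0.07 in the Btg1 knockdown (edgeR adjusted p = 5.4e-10). Of 3 Schwann cell and neuronal markers that passed the filter, 2 fell in the Btg1 and in the double knockdown, and the 5 in the table summed to 23.4 to 30.4 and 25.1 to 27.6 TPM beside 33.3 to 37.3 in scramble and 29.4 to 32.1 in the Btg2 knockdown. S100b was among them (-0.98 ± 0.27 in the Btg1 knockdown, edgeR adjusted p = 0.0054). Epicardial markers gave 0 calls of 4 in the Btg1 knockdown in edgeR (0 at an unadjusted p under 0.05), and 1 rise (Krt19, 0.53 ± 0.06) and 1 fall (Msln, -0.97 ± 0.17) in the Btg2 knockdown (edgeR adjusted p = 8.2e-07 and 1.1e-04), with the same signs called in the double. In bulk RNA, fewer cells of a type and less RNA per cell cannot be told apart, and the part of cell makeup in the repair gene results was not tested.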

How the data were processed

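The authors deposited raw counts per gene and TPM values for 12 libraries of amplified RNA (Ovation RNA-Seq System v2, Nextera XT), read in pairs, per the labels' protocols. FastQC, Trim Galore, cutadapt, STAR, featureCounts and the build rn5 appear in the submitters' processing notes. For gene annotation and strand setting, the sources used here give nothing. In GRCr8, 14 of 31 members overlap another gene's span, so shared reads are possible; reads are not independent molecules.

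Counts were tested with edgeR 4.0.16 (limma 3.58.1, R 4.3.3): TMM scaling, filterByExpr, 1 mean per group, 8 residual degrees of freedom, a common biological coefficient of variation of 4.97%, and Benjamini-Hochberg adjustment over 12535 genes in each of 6 comparisons. The 4 groups shared 1 dispersion per gene, although replicate spread was unequal. Chi-squared per degree of freedom between replicate pairs was 4.07 to 4.82 in scramble and 12.8 to 25.7 in the double knockdown. It was 6.76 to 11.4 in the Btg1 knockdown and 5.81 to 8.01 in the Btg2 knockdown. Each SE was computed as |log2 change| / sqrt(F). The edgeR step was tested on simulated data. Alternatives were DESeq2 1.42.0, other scalings, filters and fits, limma on TPM (log2, pseudocount 1 or 0.1), and each library left out. By rule, each library is given for members called in any comparison, other lists name up to 6 genes with the smallest p, and promoters are printed for 4 members with the smallest p and 1 that did not move. Members and lists were chosen with earlier results of these data known.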

Additional observations from a re-analysis of the deposited data

Results flagged for a closer look

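In 5 members the effect of the Btg2 siRNA differed with and without the Btg1 siRNA, by the interaction term of edgeR's quasi-likelihood fit over all 12 libraries. The difference was -0.76 ± 0.20 for Brca1, -0.50 ± 0.14 for Fancd2 and -0.40 ± 0.09 for Atm, and 0.30 ± 0.08 for both Xrcc6 and Ercc1 (log2 scale, SE). For Brca1 the Btg2 effect was -0.00 without and -0.77 with the Btg1 siRNA, and for Atm it was 0.32 without and -0.08 with it. Knockdown of Btg2 itself was unequal, its siRNA changing it by -0.70 without and -1.35 with the Btg1 siRNA. The share of members so called, 16.1%, was close to the 15.1% of all genes.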

How the results depend on the processing

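Of 285 recomputed counts, 256 stayed within 1.5 times the value reported. With limma on TPM and a pseudocount of 1 or 0.1, 3 and 2 members departed from additivity rather than 5, and 2 proliferation genes in each case rather than 8; the latter were 13 with DESeq2 and 5 with library size alone. Leaving out 1 library at a time, member counts ran from 7 to 11 in the Btg1 knockdown, 4 to 6 in the double against the Btg2 knockdown, and 3 to 6 for departure from additivity. Other repair genes ran from 13 to 21 in the Btg2 knockdown, 13 to 22 in the double against the Btg1 knockdown, 16 to 22 against the Btg2 knockdown and 3 to 7 for departure. Proliferation genes ran from 14 to 24 in the Btg2 knockdown, 16 to 25 in the double and 2 to 12 for departure. Fewer libraries were fitted in these; otherwise the cause was not tested. Of 763 recomputed member results, 668 stayed the same, 95 no longer passed and 0 changed direction. Results of single genes were recomputed only where the edgeR fit had called them, so a new call could not appear among them. Among the 763 are 3 recomputations of the count of members with the Btg1 knockdown shape, all rated the same at 10 to 11. Both targets kept their calls in all 190 settings. With the replicate block, 13, 5, 7, 11, 7 and 5 members were called in the order Btg1, Btg2, double, double against Btg1, double against Btg2 and departure; Chek2 in the Btg2 knockdown was lost. Same-numbered libraries did not deviate together (correlations of -0.092 to 0.060 over 18 pairs). These correlations cannot tell whether such libraries share a culture or litter, which the labels do not state. The departure from additivity was not run with only the compared groups, since it uses all 4. At 1.59 to 3.80 CPM, Exo1 had an SE of 0.19 in the Btg1 knockdown, so small changes in it were not detectable at this depth.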
